A study of Mus musculus with 2 samples.

Results

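The goblet cell and mucin genes described here are 10 genes chosen by name: Tff3, Clca1, Fcgbp, Agr2, Spdef, Muc1, Muc2, Muc4, Muc20 and Creb3l4. All 10 had at least 1 non-control probe on the array whose RefSeq accession maps to the symbol, 16 probes in all and each printed as 1 spot. By the detection rule given below, 7 of the 10 were detected, out of 13899 detected genes in the whole series. The measurements came from 2 dye-swap Agilent arrays of ventral prostate. RNA pooled from 6 wild-type FVB/N mice, 6 months old, was hybridised against RNA pooled from 6 mice of the same strain and age that carried the ARR2PB-miR32 transgene. The probasin-derived ARR2PB promoter drives expression in the epithelium of the prostate in response to androgen, so the transgene is meant for epithelial cells and not for the stroma. Both samples are labelled as ventral prostate, although the growth protocol also mentions the dorsolateral lobes. The transgenic pool was labelled in Cy3 on array 1 and in Cy5 on array 2. Both arrays carried the same pair of pools, so each genotype has 1 replicate, the spread between mice was not measured, and no p-value can be given.

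Goblet cells are secretory epithelial cells that release mucus. Gel-forming mucins such as Muc2 make up the mucus itself, while membrane mucins such as Muc1, Muc4 and Muc20 stay anchored to the cell surface. Tff3, Clca1 and Fcgbp are released together with the mucus. Agr2 is a protein disulphide isomerase of the endoplasmic reticulum that helps mucins fold, Spdef is an ETS transcription factor needed for goblet cell maturation in gut and airway and also present in prostate epithelium, and Creb3l4 is a membrane-bound transcription factor abundant in prostate. The ventral prostate is a secretory gland whose luminal cells are not goblet cells. The transgene encodes miR-32, a microRNA that pairs with messenger RNAs through its seed, bases 2 to 8. Its mature 5p strand is shown because it defines the perturbation, with the seed in capitals, as RefSeq gives it on GRCm38.p6 (chr4:56895272-56895293, minus strand). The arrays measure messenger RNA, and the level of the microRNA in either pool was not analysed here.
mmu-miR-32-5p: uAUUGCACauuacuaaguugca

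The 3 secreted mucus companions were higher in the transgenic pool, while no mucin and no goblet cell regulator was called. Tff3 was 10.5-fold higher, Clca1 4.07-fold and Fcgbp 3.41-fold, each on both arrays. Muc20, Spdef, Creb3l4 and Agr2 were detected in both pools and were not called in either direction. Muc1, Muc2 and Muc4 were not detected in either pool. A call, higher or lower, needed a mean log2 ratio of transgenic over wild type of at least 1 in size, which is 2-fold, and a ratio past 1.5-fold the same way on both arrays. By this rule 3 of the 7 detected members were called higher and 0 were called lower. Over all detected genes the rule called 1.09% higher and 3.53% lower. With a mean of 1.5-fold in place of 2-fold the members' counts were again 3 and 0, against 1.80% and 5.49% of all detected genes. The members were chosen with earlier results of these data known, so their count is a description.

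Detection was read from Feature Extraction's mark for a signal well above background. A probe counted as detected where at least 1 pool carried this mark on both arrays, and each gene was represented by its brightest detected probe. All 7 detected members passed that mark in each pool on each array, so none passed through the transgenic pool alone. The precision of every value rests on 2 technical arrays. No spot was saturated (0 on either array) and none of the 16 member probes was marked as an outlier on either array (0 spots). Red was the weaker channel on both arrays, with 17185 to 18606 spots well above background against 29736 to 30718 in green, and a median coefficient of variation of replicate spots, per the file headers, of 25.9 to 30.5% against 15.1 to 15.7%. In the text below, levels are log2 intensities after normexp background correction, loess within each array and Aquantile normalization between the arrays. A level of one probe says nothing about the level of another.

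**Figure D1:**
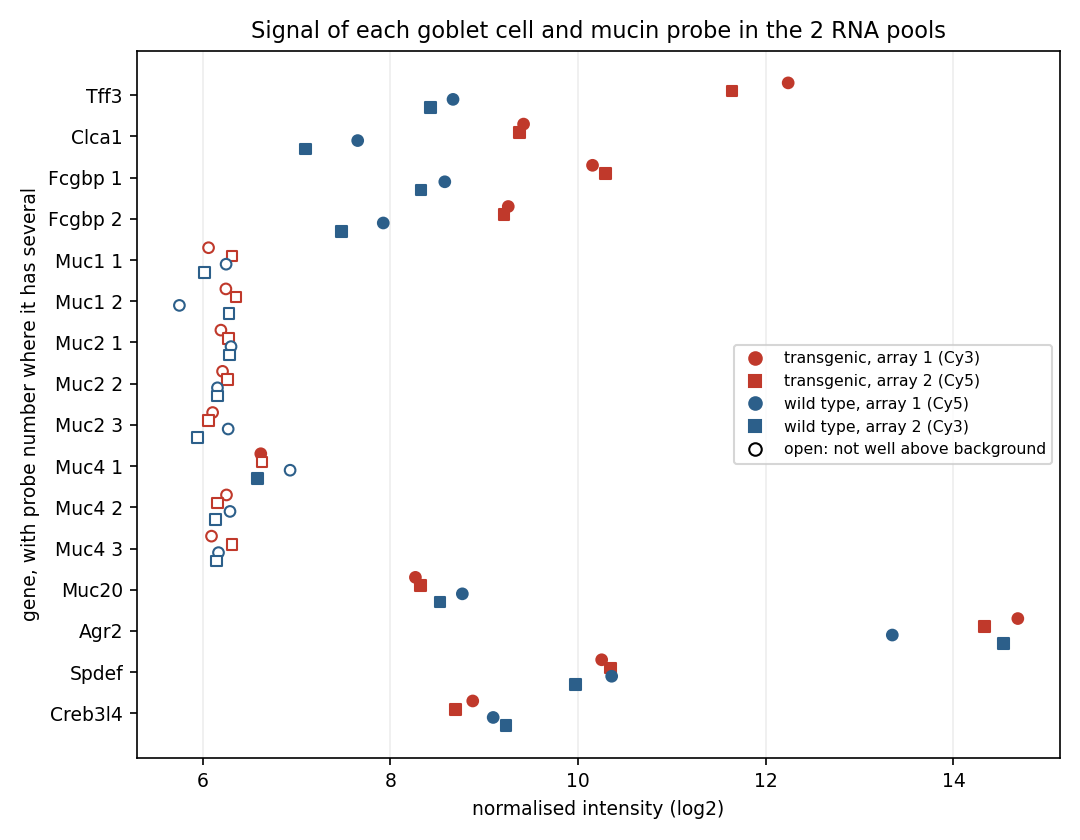
Normalised log2 intensity of each of the 16 probes of the 10 genes on the horizontal axis, with one row per probe. Red points are the transgenic pool and blue points the wild-type pool, circles are array 1, squares array 2, and open points were not well above background. The red and blue points of Tff3, Clca1 and both Fcgbp probes lie apart, while the probes of Muc1, Muc2 and Muc4 sit near background in both pools.

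Tff3, the trefoil factor that intestinal and airway goblet cells secrete to protect and repair mucosa, had the largest ratio of the 10 genes. Its level in the transgenic pool was 12.24 on array 1 and 11.64 on array 2, and in the wild-type pool it was 8.67 and 8.43. The pools did not overlap. The log2 ratio was 3.57 on array 1 and 3.21 on array 2, a mean of 3.39 ± 0.25 (SD of the 2 technical arrays, n = 2). Tff3 ranked 5 of 13899 detected genes from the highest ratio down. The raw signals show the same difference within each dye. In Cy3 the spot read 7043 for the transgenic pool over a local background of 29 and 584 for the wild-type pool over 26. In Cy5 it read 2025 over 112.5 and 271 over 92.

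Clca1, known as gob-5 in the mouse, is a metalloprotease that goblet cells release with mucus, and it carries several older names in the RefSeq table, Clca2 and Clca3 among them. Its level was 9.42 and 9.38 in the transgenic pool on arrays 1 and 2, and 7.65 and 7.10 in the wild-type pool. Both transgenic values lay above both wild-type values. The log2 ratio was 1.77 on array 1 and 2.28 on array 2, a mean of 2.02 ± 0.36 (SD, n = 2), and the gene ranked 32. The wild-type signal was low, at 176 over a background of 111 in Cy5 and 193.5 over 26 in Cy3. With no background subtraction the ratio was 1.91. Feature Extraction's own processed signals, which differ in both background subtraction and dye normalization, gave 2.83, a larger fold by more than 1.5 times. The paralogs looked up here, Clca2, Clca3b, Clca4a and Clca4b, each had a probe and were well above background on neither array in either pool. No other paralog was looked up. Whether the Clca1 probe also binds the message of any paralog was not tested.

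Fcgbp, a large protein of the mucus gel that binds other mucus components, was measured by 2 probes. By the brighter probe its level was 10.15 and 10.29 in the transgenic pool and 8.58 and 8.33 in the wild-type pool. The dimmer probe gave 9.26 and 9.21 against 7.93 and 7.48. The pools did not overlap by either probe. The log2 ratio of the brighter probe was 1.57 on array 1 and 1.97 on array 2, a mean of 1.77 ± 0.28 (SD, n = 2) at rank 38. The dimmer probe gave 1.33 and 1.74, a mean of 1.53 ± 0.29, so the 2 probes differed by less than the arrays did. Fcgbp is thus the one member of the 3 whose difference was read by a second probe, while Tff3 and Clca1 rest on 1 probe each.

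**Figure D2:**
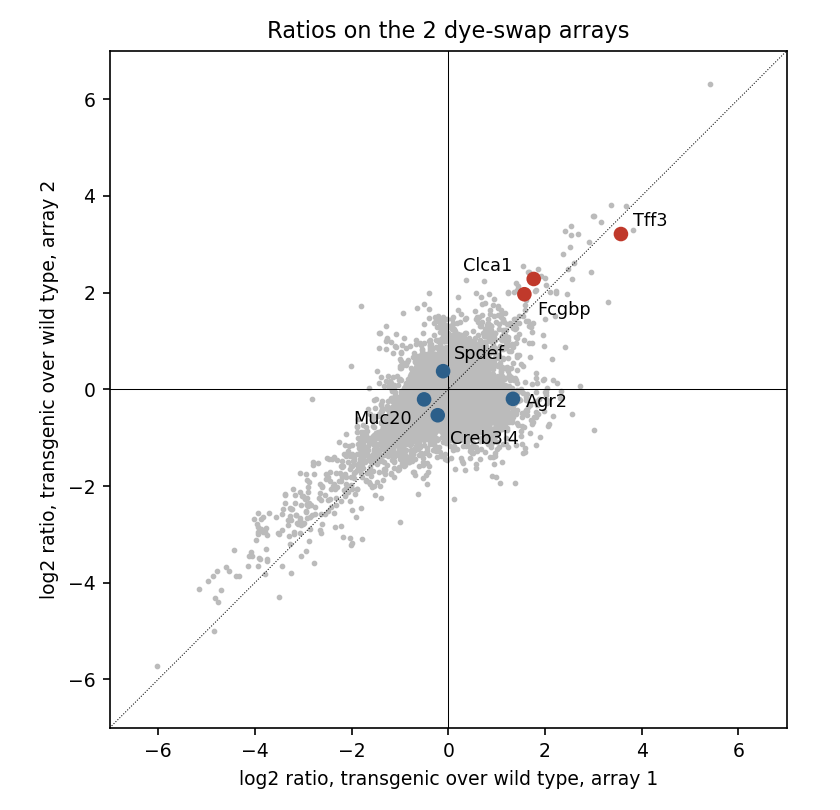
Log2 ratio of transgenic over wild type on array 1 (horizontal) and on array 2 (vertical) for all 13899 detected genes in grey and the 7 detected members in colour, with red for called higher and blue for not called; the dotted line marks equal ratios. Tff3, Clca1 and Fcgbp lie near that line at the upper right, and Agr2 lies far from it, at 1.34 on array 1 and -0.20 on array 2.

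Among the 4 mucins, only the membrane mucin Muc20 was detected. Its level was 8.27 and 8.32 in the transgenic pool and 8.77 and 8.53 in the wild-type pool. The transgenic values lay below the wild-type values, with log2 ratios of -0.50 and -0.21 and a mean of -0.35 ± 0.21 (SD, n = 2), which did not reach the size for a call. The gel-forming intestinal mucin Muc2 was read by 3 probes, and none was well above background in any of the 4 measurements. Its green spots read 34.5 to 38.5 in the transgenic pool and 31 to 48 in the wild-type pool, over local backgrounds of 23 to 26. The membrane mucin Muc1 was likewise dim by both of its probes, at 31 and 41 in green for the transgenic pool and 34 and 50.5 for the wild-type pool, over backgrounds of 23 to 28. No fold is given for these genes, because both pools were near background.

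Muc4, a large membrane mucin, stood between these cases. The brightest of its 3 probes was well above background in green in both pools, at 72 over 24 in the transgenic pool on array 1 and 88 over 32 in the wild-type pool on array 2. In red it was not, at 149 over 129 in the transgenic pool and 147 over 109 in the wild-type pool. Each pool therefore passed on 1 of the 2 arrays, in the channel with the lower background, and the gene did not count as detected. The other 2 Muc4 probes were not well above background in any measurement. The RefSeq models of Muc4 and Muc20 overlap on the chromosome, and whether a probe of one gene binds messages of the other was not tested.

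The folding factor Agr2 gave the least certain value of the detected members. Its level was 14.69 and 14.33 in the transgenic pool and 13.35 and 14.53 in the wild-type pool, so the pools overlapped. The log2 ratio was 1.34 on array 1 and -0.20 on array 2, a mean of 0.57 ± 1.09 (SD, n = 2). This SD lay at percentile 97.7 of all detected genes, whose median SD was 0.24, and the probe's brightness at percentile 98.5. Compared within a dye by Feature Extraction's processed signals, the transgenic pool was 1.05-fold the wild-type pool in Cy3 and 1.57-fold in Cy5. No direction is drawn for Agr2. Its call would be higher on array 1 alone and none on array 2 alone.

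Both transcription factors were detected at similar levels in the pools. Spdef was at 10.25 and 10.35 in the transgenic pool and 10.36 and 9.97 in the wild-type pool, and the pools overlapped. Its log2 ratio was -0.11 on array 1 and 0.37 on array 2, a mean of 0.13 ± 0.34 (SD, n = 2). Creb3l4 was at 8.88 and 8.70 in the transgenic pool and 9.10 and 9.23 in the wild-type pool. Its transgenic values lay below its wild-type values on both arrays, at -0.22 and -0.54 with a mean of -0.38 ± 0.23, and it was not called. Set side by side, the mean log2 ratios were 1.77 to 3.39 for the 3 secreted products and -0.38 to 0.57 for the other 4 detected members. The median of the 7 was 0.57, against 0.011 over all detected genes. That median is the value of Agr2 itself, and on array 1 alone it was 1.34 and on array 2 alone 0.37.

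**Figure D3:**
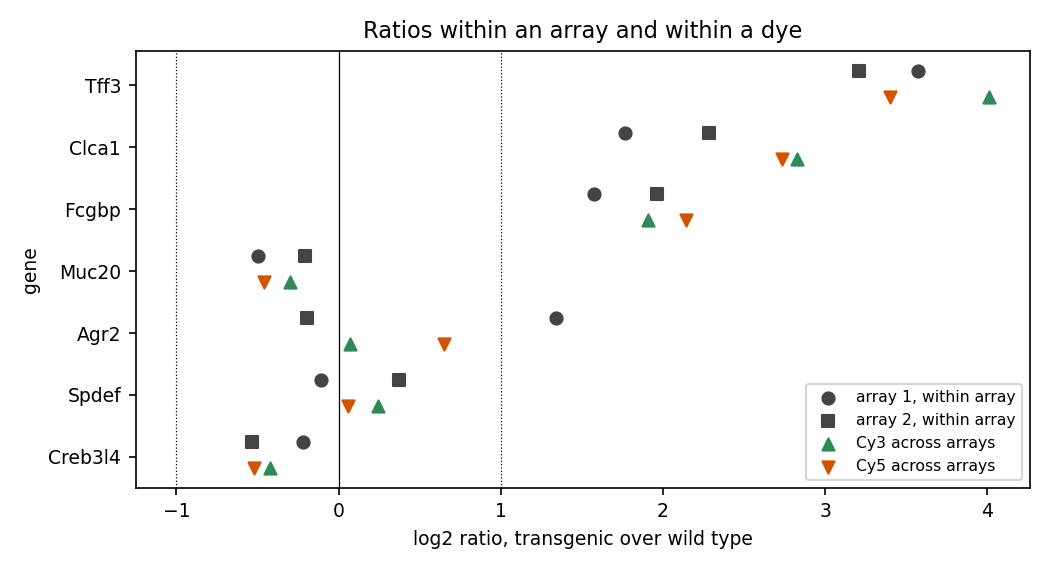
Log2 ratio of transgenic over wild type for the 7 detected members, one row per gene. Grey points compare the pools within array 1 (circle) or array 2 (square) after normexp and loess, and triangles compare the same dye between arrays by Feature Extraction's processed signals centred on the median, green for Cy3 and orange for Cy5. Dotted lines mark a log2 ratio of 1 in size. All 4 points of Tff3, Clca1 and Fcgbp lie above 1, and the points of Agr2 run from -0.20 to 1.34.

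Because the dyes were swapped, the pools can also be compared in one dye at a time, across arrays. For Tff3 the transgenic pool was 16.1-fold the wild-type pool in Cy3 and 10.5-fold in Cy5. For Clca1 the values were 7.09-fold and 6.65-fold, and for Fcgbp 3.75-fold and 4.42-fold. The difference of these 3 genes was therefore present in each dye alone. Muc20 stood at 0.81-fold and 0.73-fold, Creb3l4 at 0.75-fold and 0.70-fold, and Spdef at 1.18-fold and 1.04-fold. This comparison was added after the data were seen, and it uses the same 4 signals per gene as the ratios within arrays, so it is not independent of them.

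Promoter sequences, from 250 bases before to 50 bases after a start, were given by RefSeq (GRCm38.p6) for 8 of the 10 genes, 10 windows in all. The windows of 3 genes are shown, cut to the 250 bases before the start. Fcgbp is the one called member with a sequence here, Muc2 is a gel-forming mucin that was not detected, and Spdef is a detected regulator, as is Creb3l4, whose windows are not shown. Capitals mark matches, on either strand, to the letters TATAA (the TATA box), CCGGAT (an SPDEF core), TGTTTAC (a FOXA core) and TGACGT (a CREB core).
Fcgbp, chr7:28070986-28071235, plus strand: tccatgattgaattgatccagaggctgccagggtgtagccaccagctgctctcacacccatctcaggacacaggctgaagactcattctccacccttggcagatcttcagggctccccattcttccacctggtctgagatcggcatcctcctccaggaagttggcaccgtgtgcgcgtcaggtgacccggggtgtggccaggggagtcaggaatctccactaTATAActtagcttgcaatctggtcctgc
Muc2, chr7:141690090-141690339, plus strand: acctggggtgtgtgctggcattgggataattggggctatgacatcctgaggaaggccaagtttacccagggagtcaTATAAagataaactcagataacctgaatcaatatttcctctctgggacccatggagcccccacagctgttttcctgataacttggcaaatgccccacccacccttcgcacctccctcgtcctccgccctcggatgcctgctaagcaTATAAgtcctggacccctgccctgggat
Spdef, chr17:27728952-27729201, minus strand: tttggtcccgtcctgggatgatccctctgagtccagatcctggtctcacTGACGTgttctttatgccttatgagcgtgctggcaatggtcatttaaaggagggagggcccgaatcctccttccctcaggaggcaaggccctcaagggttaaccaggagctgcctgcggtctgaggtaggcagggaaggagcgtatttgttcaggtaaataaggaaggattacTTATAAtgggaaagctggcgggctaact

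TATAA began 28 bases before the start in both Fcgbp and Muc2. In Spdef it stood at 28 bases on the opposite strand and at 27 bases on the gene's own strand. The genes shown are all among those with TATAA near the start. Muc20, Agr2 and Creb3l4, which were detected and not called, had no match within 20 to 40 bases before the start. Within 20 to 40 bases before the start these letters occurred in 5 of the 10 member windows, those of Fcgbp, Muc1, Muc2, Muc4 and Spdef, and in 4.35% of all 32851 promoter windows. Anywhere in the window TATAA matched 6 of the 10 member windows, against 24.9% of all windows. CCGGAT matched 0 of the 10, against 6.04% of all. TGTTTAC matched Muc20 alone, against 3.65%. TGACGT matched Spdef alone, against 7.51%. These are matches of letters, and nothing about the binding of a factor follows from them.

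Other genes of mucus production were taken as 4 related lists of 56 genes, of which 47 had a probe and 22 were detected, with 0 called higher, 0 called lower and a median of 0.010. With 1.09% of all detected genes called higher and 3.53% lower, counts of 0 among 22 genes are near the overall share. Of these 22, 6 were above 0 on both arrays, 6 were below 0 on both and 10 differed in sign between the arrays. Over all 13899 detected genes the counts were 3424, 3788 and 6687, a similar split. Among 11 other mucins, 5 had a probe and 2 were detected. The membrane mucin Muc13 stood at 0.84 ± 0.20 (SD, n = 2), with 0.98 on array 1 and 0.71 on array 2, and its wild-type signal passed the background mark on 1 of the 2 arrays. By Feature Extraction's processed signals Muc13 was at 2.66 and called higher. The gastric and airway mucin Muc5ac, detected in both pools, stood at 0.083 ± 0.290. The airway mucin Muc5b was well above background in neither pool on either array.

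Of 11 other products that goblet cells secrete, only the lectin Itln1 was detected, at 0.077 ± 0.116 (SD, n = 2). The trefoil peptides Tff1 and Tff2 were not detected, in contrast to Tff3. Neither were Zg16, Retnlb or Spink4, all products of intestinal goblet cells. Tff1 and Spink4 passed the background mark on 1 array in each pool. Tff2 and Zg16 passed it on 1 array in the transgenic pool alone, and Retnlb passed it on neither array in either pool. Of 12 other regulators 5 were detected, with a median of -0.069. The epithelial ETS factor Elf3 was the highest at 0.34 ± 0.65 and Klf4 the lowest at -0.37 ± 0.16. The pioneer factor Foxa1 stood at -0.069 ± 0.381, while Foxa2, Foxa3 and Atoh1, the factor that commits intestinal cells to a secretory fate, were well above background in neither pool.

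The enzymes that build mucin-type sugar chains had 14 detected members of 19 with a probe and a median of 0.019. Galnt7, which adds N-acetylgalactosamine to partly glycosylated mucins, was the highest at 0.67 ± 0.35 (SD, n = 2), its second detected probe gave 0.82, and its wild-type signal passed the background mark on 1 of the 2 arrays. The sialyltransferase St3gal1 was the lowest at -0.89 ± 0.25, and its transgenic signal passed the background mark on 1 of the 2 arrays. By Feature Extraction's processed signals Galnt7 was called higher at 1.75 and St3gal1 lower at -1.41. The shared core enzyme C1galt1 stood at 0.11 ± 0.08 and its chaperone C1galt1c1 at -0.20 ± 0.05.

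**Figure D4:**
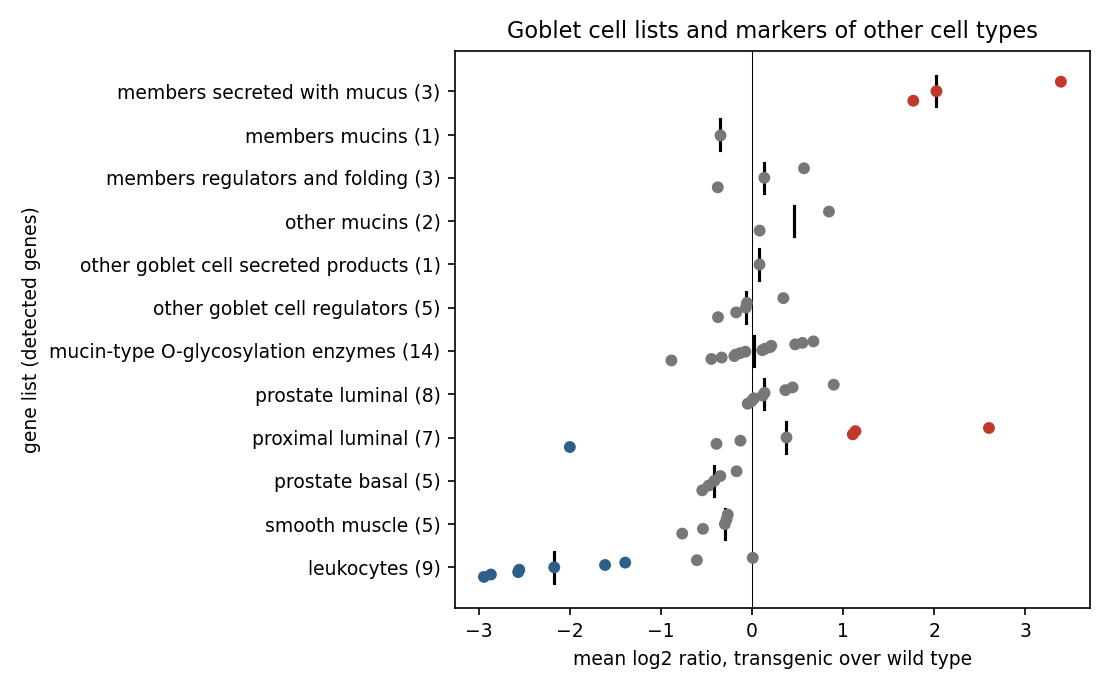
Mean log2 ratio of transgenic over wild type for each detected gene of the goblet cell lists and of marker lists of other cell types, with the number of detected genes in parentheses. Red points were called higher, blue points lower and grey points neither, and the black bar is the list median. The 3 secreted members lie between 1.77 and 3.39, the related mucus lists lie around 0, and 7 of 9 leukocyte markers were called lower.

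Markers of other cells in the bulk tissue also differed between the pools. All 8 prostate luminal markers were detected, among them Pbsn and Hoxb13, which mark prostate epithelium but not one lobe of it. The seminal vesicle genes Svs2, Svs4, Svs5 and Pate4 were well above background in neither pool. The same list also covered secretory products of other prostate lobes. In it the prostate transglutaminase Tgm4 was called higher at 2.12 and the protease inhibitor Spink5 lower at -4.58. Whether the pools differed in their content of other lobes was not tested. The luminal list had a median of 0.13 and 0 of 8 called. Of 7 proximal luminal markers 3 were called higher, Clu and Ppp1r1b among them, and 1 lower, Ly6d. Of 9 detected leukocyte markers 7 were called lower and 0 higher, with a median of -2.17 and a range of -2.94 to 0.007. Basal markers ran from -0.55 to -0.17 and smooth muscle markers from -0.77 to -0.27, with 0 called in either list. Of 4 urothelial markers 3 were detected, Upk1a, Upk1b and Upk2, each in both pools, at -0.15 to 0.12. All 4 adipocyte markers were detected, at 0.071 to 0.16, and 0 were called in either of these lists. Whether the pools held urothelium or fat was not tested. None of 7 intestinal epithelial markers was detected (0 of 7). Cdx1 and Cdx2 were well above background in neither pool. Vil1, Fabp2, Alpi, Cdh17 and Krt20 each passed the background mark on 1 of the 2 arrays in each pool, by at least 1 probe. In pooled bulk RNA, a change in the share of a cell type and a change of RNA per cell cannot be told apart. The part of these shifts in the ratios of Tff3, Clca1 and Fcgbp was not tested.

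**Figure D5:**
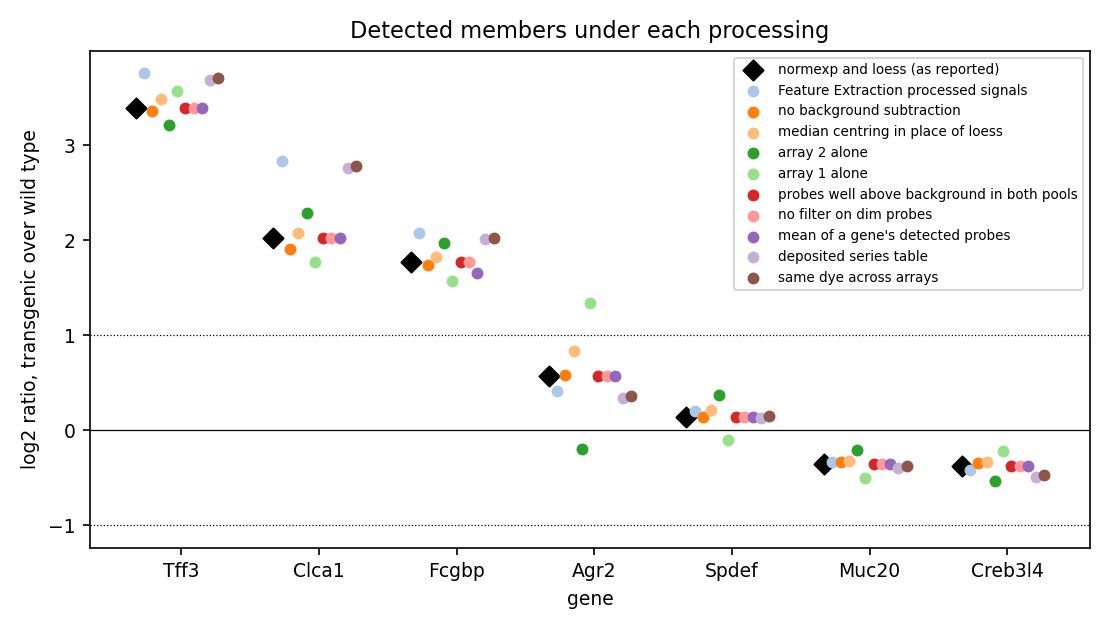
Log2 ratio of transgenic over wild type for each of the 7 detected members under the processing used here (black diamond) and under each alternative (coloured circles). Dotted lines mark a log2 ratio of 1 in size. Tff3, Clca1 and Fcgbp lie above 1 under every setting shown, with lowest values of 3.21, 1.77 and 1.57, while Agr2 passes 1 only on array 1 alone.

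The calls of the 3 secreted genes were the same under each processing tried, though some settings could not change them. Tff3 ranged from 3.21 to 3.75 over 11 settings, the reported one included. Clca1 ranged from 1.77 to 2.83 and Fcgbp from 1.57 to 2.08, and each was called higher in all 11. The changes of detection rule could not alter these values, because the probe used for each gene passed in both pools. Averaging a gene's probes could not alter Tff3 or Clca1, which have 1 probe each. The same-dye mean and the series table repeat the ratio from Feature Extraction's processed signals up to a constant shift. They are therefore not separate from that setting. Muc20 ranged from -0.50 to -0.21 and Creb3l4 from -0.54 to -0.22, below 0 and uncalled in all 11. Spdef ranged from -0.11 to 0.37 and was above 0 in 10 of 11. These settings share the same 2 pools and say nothing about other mice.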

How the data were processed

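RNA of 6 wild-type and 6 transgenic mice was pooled by genotype, and 100 ng was labelled per the labels' protocols. Feature Extraction 11.0.1.1 extracted the spots, and probes are annotated on mm9, per the file headers. For each spot the deposited files hold raw intensity (median pixels of spot and local background), processed intensity after background subtraction and dye normalization, and the log10 of red over green. The deposited series table holds log2 ratios of 15511 probes, centred on a median of 0; compared with the processed signals as transgenic over wild type they differed by shifts of -0.080 and -0.054 and had a correlation of 1 after rounding. How its probes were filtered is unstated.

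Median intensities were background-corrected with normexp (offset 50) and normalized by loess within each array, with weight 0 for control and outlier spots (limma 3.58.1, R 4.3.3), and checked on simulated data. Symbols came from the RefSeq table of GRCm38.p6 by accession without version: 27760 of 41079 usable probes matched, and 95 probes without a usable spot on both arrays were left out. This build differs from mm9, so the table gave names only. Detection needed the background mark on both arrays in at least 1 pool. Both arrays carry the same pools, so no test was run. The text names all 10 members and, of each related list, called genes and the highest and lowest detected gene. Other genes were named after their values were seen. Members, gene lists and promoter motifs were chosen with earlier results of these data known. Alternatives covered background correction, normalization, single arrays, detection, probe choice, the series table and the size of a call.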

Additional observations from a re-analysis of the deposited data

How the results depend on the processing

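The 3 higher and 0 lower calls among the members were the same under each of the 10 alternatives to detection, background, normalization, probe choice, array or call size, except that array 1 alone added Agr2. The alternatives to detection could not alter the ratios of the detected members. The series table repeats Feature Extraction's processed signals up to a shift, so it is not separate from that alternative. Over all detected genes, Feature Extraction's processed signals called 309 higher and 938 lower, median centring 99 higher, detection in both pools 267 lower, and a mean of 1.5-fold 250 and 763. On single arrays 271 to 450 genes were called higher, and higher genes were 42.9% of the calls on array 1 against 23.5% in the mean. The members' median was 0.37 to 1.34 on single arrays. The median of the 2 other mucins was 1.40 with Feature Extraction's signals and 0.54 under median centring. Detection in both pools and the series table leave out Muc13, so their values of 0.083 and 0.081 are those of Muc5ac alone. With no filter on dim probes the median of 0.15 covers all 5 other mucins with a probe. Muc13 was called higher with Feature Extraction's signals and with a mean of 1.5-fold. Among sugar-chain enzymes, Feature Extraction's signals called 1 higher and 1 lower, a mean of 1.5-fold called 1 lower, single arrays called 0 to 1 in each direction, and the median was -0.16 in the series table. Detection in both pools and the series table hold fewer genes, 12011 against 13899, and no filter holds more, 31926. Beyond these changes of gene set, the cause of these shifts was not tested. No paired analysis was possible because the results come from no test. Red signals near background limit ratios of dim probes.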

Other observations

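Agr2 belongs to the brightest 2% of detected genes, 278 in all, in which the median SD between arrays was 0.34 against 0.24 over all detected genes. In that set the log2 ratios of 29 genes, 10.4%, differed by more than 1 between the arrays, against 8.74% of all detected genes. Of the 29, array 1 was higher for 13, Agr2 among them, and array 2 for 16. Feature Extraction's processed signals gave Agr2 0.65 on array 1 and 0.17 on array 2, closer to each other than the loess ratios of 1.34 and -0.20. Among the enzymes of mucin-type sugar chains, Galnt10 showed a like split, at 1.39 on array 1 and -0.28 on array 2.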
